A study of Mus musculus with 12 samples.

Results

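The genes described here were 10 genes that brake or drive the cell cycle or are linked to cellular senescence: Cdkn1a, Cdkn1b, Cdkn2a, Cdkn2c, Mdm2, Ccnd1, Ccnd2, Gdf15, Btg2 and Gadd45a. They were chosen by name, not by their values, from the 53465 genes of the count table, and their Ensembl identifiers were matched through the GENCODE M21 annotation of GRCm38. All 10 were in the table and had counts. None was below detection in all 12 livers, where detection means at least 3 reads in a liver, but Cdkn2a was at or near that floor and is treated as low throughout.

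Entry into S phase depends on D-type cyclins, which pair with CDK4 and CDK6 to inactivate the retinoblastoma protein. Proteins of the Cip/Kip family (p21 from Cdkn1a, p27 from Cdkn1b) and of the INK4 family (p16Ink4a from Cdkn2a, p18Ink4c from Cdkn2c) hold these kinases back, and p53 induces Cdkn1a, Mdm2, Btg2, Gdf15 and Gadd45a after DNA damage or other stress. Lasting expression of p16Ink4a and p21 is a hallmark of senescent cells, while the hepatocytes of an adult liver are mostly quiescent and re-enter the cycle on injury.

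RNA was sequenced from livers of C57BL/6N mice that were young (3 months), middle-aged (12 months) or aged (18 months). The study's methods state that its own animals were male, which covers these livers only if they came from those animals. The sample labels assign every library to 1 animal and give 4 libraries at each age, whereas the design text of the series gives 3 replicates per age, and the number of animals is therefore uncertain. The labels name no transgene or treatment. The labels and methods describe the preparation of young and old livers only, and a public atlas is named as the source of RNA-seq across ages, so the origin of these livers and of their spike-in transcripts is uncertain. Levels are given as normalised counts, which are read counts divided by a factor for the depth of each library.

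Counts assigned to genes ranged from 8124312 to 10527159 per liver, and the floor of 3 reads was worth between 2.62 and 3.82 normalised counts. Synthetic spike-in transcripts separated replicates 1 and 2 of every age from replicates 3 and 4 of every age, with correlations of at least 0.997 inside a set and at most 0.925 between sets. Values within each set are therefore given for the 10 genes where they change a result, and for other genes only in places. Genes with a count numbered 22284 in young replicate 3, 19982 in middle-aged replicate 1 and 16361 to 17563 in the other 10 livers. The 6 hepatocyte markers Alb, Ttr, Apoa1, Serpina1c, Hnf4a and Cyp3a11 summed to between 686631 and 945023 normalised counts in the 12 livers, as liver should hold. In whole liver, fewer cells of a type and less RNA per cell cannot be told apart.

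Of the 10 genes, 2 passed the test in a comparison of ages. Cdkn2c fell between 3 and 18 months, and Btg2 was lower at 12 than at 3 months. The Cdkn2c call was lost without aged replicate 3 and within each spike-in set, where 2 livers stood against 2. The Btg2 call depended on the livers and settings used. DESeq2 called 1 of 9 members tested between middle-aged and young livers (Btg2), where 6.41% of all genes tested were called, and 1 of 10 between aged and young livers (Cdkn2c), where 3.58% were called. Between aged and middle-aged livers DESeq2 called 0 of 9 members, against 1.14% of all genes tested, with 1 member (Cdkn1a) under an unadjusted p of 0.05, and edgeR also called 0. Over the 3 ages together the likelihood ratio test of DESeq2 called 2 members, Cdkn2c and Btg2, against 6.96% of all genes. At 1 or 2 of 10 genes these shares cannot be set apart from the background.

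Among the 9 members whose mean normalised count was 10 or more, the median log2 fold change was -0.058 for middle-aged against young livers, 0.148 for aged against young and 0.132 for aged against middle-aged. Over all 11804 genes of that level the medians were 0.0078, 0.0079 and 0.0009. Members lay on both sides of 0, with 5 above and 4 below 0 in aged against young livers. The group as a whole thus had no shared direction, and the genes are described 1 by 1.

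**Figure D1:**
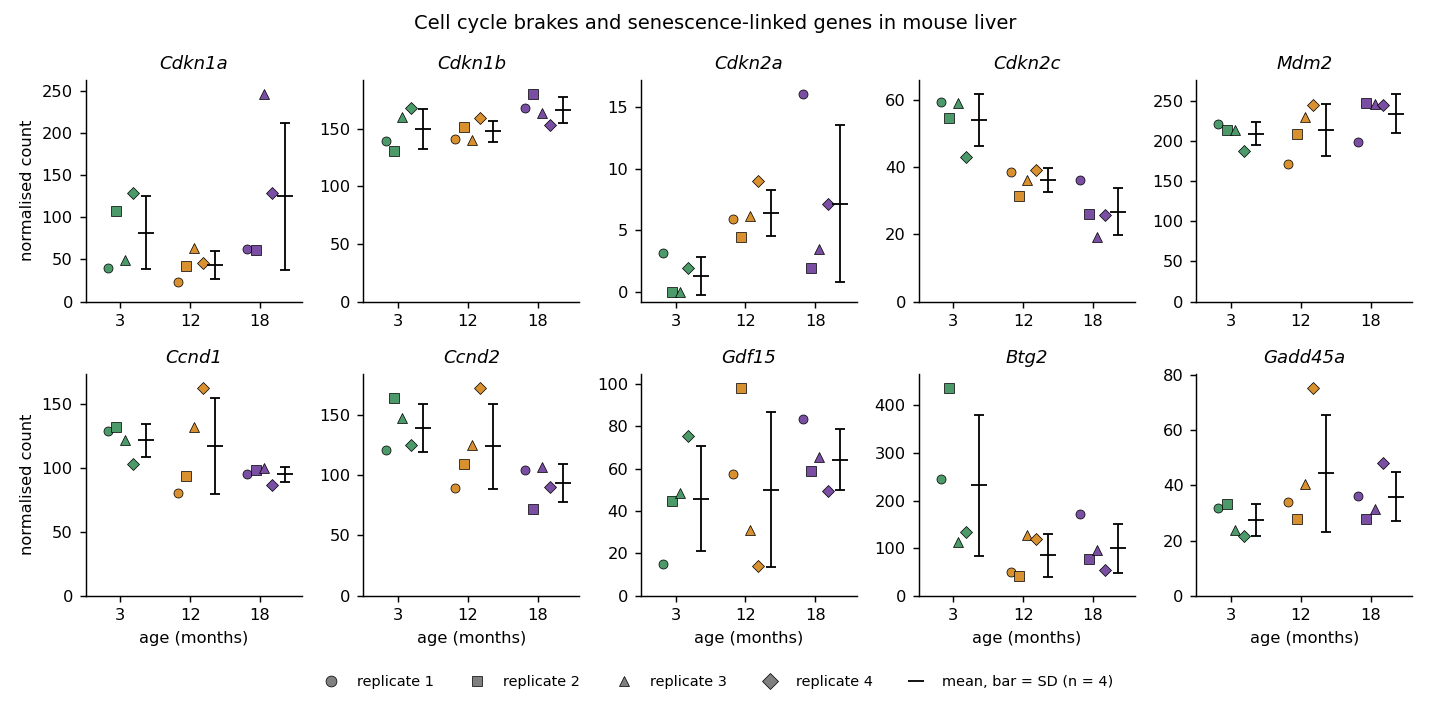
Normalised count (vertical axes, each starting at or just below 0) of the 10 genes against age in months. Each marker is 1 liver, its shape gives the replicate number, and the black bar is the mean and SD of 4 livers. All 4 aged livers lie below all 4 young livers for Cdkn2c, Ccnd1 and Ccnd2, while Cdkn1a, Gdf15 and Btg2 spread widely within an age.

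The promoters of the 2 genes that passed a test are shown first, because the results turn on these genes. The windows run from 250 bases before to 50 bases after the annotated start, from RefSeq in build GRCm38.p6, and 8 of the 10 genes were matched to 12 such windows. Ccnd1 and Ccnd2 were not matched. Capitals mark the motifs searched on both strands: the E-box CACGTG, the cAMP response element TGACGTCA, the AP-1 site TGANTCA, the TATA box TATAAA and the CCAAT box. The pattern TTATGNAA was searched and marked as well. TGACGTCA is not itself a match to TGANTCA.
Cdkn2c, upstream start, chr4:109666707-109667006, minus strand: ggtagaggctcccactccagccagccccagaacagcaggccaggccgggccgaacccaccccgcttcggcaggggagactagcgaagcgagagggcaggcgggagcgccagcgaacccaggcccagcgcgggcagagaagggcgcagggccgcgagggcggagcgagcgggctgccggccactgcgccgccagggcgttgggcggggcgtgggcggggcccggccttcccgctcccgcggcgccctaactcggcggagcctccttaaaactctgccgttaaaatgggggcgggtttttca
Cdkn2c, downstream start, chr4:109665323-109665622, minus strand: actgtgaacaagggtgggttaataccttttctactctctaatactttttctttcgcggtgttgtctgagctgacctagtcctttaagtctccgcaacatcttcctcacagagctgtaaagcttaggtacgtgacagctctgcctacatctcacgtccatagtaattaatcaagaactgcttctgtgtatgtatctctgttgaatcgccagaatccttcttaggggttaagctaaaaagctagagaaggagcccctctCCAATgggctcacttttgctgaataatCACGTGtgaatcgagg
Btg2, chr1:134079106-134079405, minus strand: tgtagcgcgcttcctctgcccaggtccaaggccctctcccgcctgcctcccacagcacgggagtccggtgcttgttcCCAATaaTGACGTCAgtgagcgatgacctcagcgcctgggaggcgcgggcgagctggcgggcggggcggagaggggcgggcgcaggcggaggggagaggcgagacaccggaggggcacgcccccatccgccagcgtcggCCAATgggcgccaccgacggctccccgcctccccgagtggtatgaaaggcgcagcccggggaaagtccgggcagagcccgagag

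The upstream window of Cdkn2c held 0 of these motifs, with 73.3% G and C and 33 CG pairs. The downstream window held a CCAAT box at position 8 and an E-box at position 35 after the start, with 44% G and C. The Btg2 window was GC-rich (72%) and held the cAMP response element at position -166 and CCAAT boxes at -173 and -34. Among all 32851 windows, 1.79% held TGACGTCA, 7.15% held CACGTG, 37.4% held CCAAT, 7.81% held TGANTCA, 13.6% held TATAAA and 3.38% held TTATGNAA. The Btg2 window was the only 1 of the 12 with TGACGTCA, and Gadd45a was the only matched gene with TTATGNAA, at position -95. No protein was measured at these sites, and the matches describe letters only.

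Cdkn2c (chromosome 4, 109660876 to 109667189, ENSMUSG00000028551) encodes p18Ink4c, an inhibitor of CDK4 and CDK6 that restrains proliferation in many adult tissues. Its normalised counts were 59.4, 54.8, 59.2 and 43 in young livers, 38.7, 31.4, 36.2 and 39.1 in middle-aged livers, and 36.1, 26, 19.2 and 25.9 in aged livers. Every middle-aged and every aged liver lay below the lowest young liver, and middle-aged and aged livers overlapped only through aged replicate 1. The mean of 4 livers was 54.1 ± 7.74 at 3 months, 36.4 ± 3.53 at 12 months and 26.8 ± 6.97 at 18 months (SD, n = 4).

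Between young and aged livers Cdkn2c changed by a log2 fold change of -1.02 (standard error 0.25, adjusted p = 0.00485 with DESeq2), to 0.494 of the young level with a 95% interval from 0.35 to 0.698. The likelihood ratio test over the 3 ages gave an adjusted p of 0.00845 (DESeq2). For middle-aged against young livers the log2 fold change was -0.57 (standard error 0.24, adjusted p = 0.139 with DESeq2), and for aged against middle-aged livers -0.44 (standard error 0.26, adjusted p = 0.609 with DESeq2), and neither step passed on its own. The estimate for aged against young livers was -0.88 within replicates 1 and 2 (adjusted p = 0.882 with DESeq2) and -1.18 within replicates 3 and 4 (adjusted p = 0.333 with DESeq2), where 2 livers stood against 2. The edgeR quasi-likelihood test gave -1.01 (adjusted p = 0.0347). Without aged replicate 3, the lowest liver, the change was -0.88 and no longer passed (adjusted p = 0.0625 with DESeq2). The test over 3 ages no longer passed without young replicate 1 (adjusted p = 0.052 with DESeq2), without young replicate 3 (adjusted p = 0.0645 with DESeq2) or with edgeR (adjusted p = 0.0511). It did not pass within replicates 1 and 2 (adjusted p = 1.0 with DESeq2) or within replicates 3 and 4 (adjusted p = 0.603 with DESeq2).

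Cdkn1a (chromosome 17, 29090976 to 29100727, ENSMUSG00000023067) encodes p21, the main effector of cell cycle arrest downstream of p53. Young livers held 40.3, 108, 49.8 and 129 normalised counts, middle-aged livers 22.8, 42.2, 63.6 and 46.1, and aged livers 62.2, 61.6, 246 and 129. The ages overlapped in every pair, and the aged group contained both the highest liver, replicate 3, and a pair close to the young low values. The highest of the 12 livers, at 246, stood far above the lowest, at 22.8.

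The largest difference in Cdkn1a was between aged (125 ± 87) and middle-aged (43.7 ± 16.7) livers, with a log2 fold change of 1.51 (standard error 0.48, adjusted p = 0.0961 with DESeq2), which did not pass. It passed when only those 2 ages were fitted (adjusted p = 0.0389 with DESeq2), within replicates 3 and 4 (1.78, adjusted p = 0.00626 with DESeq2), without aged replicate 1 (1.74, adjusted p = 0.0309 with DESeq2) and without aged replicate 2 (1.74, adjusted p = 0.0419 with DESeq2). It was 0.93 within replicates 1 and 2 (adjusted p = 1.0 with DESeq2) and 0.95 without aged replicate 3. Aged against young livers differed by 0.61 (standard error 0.48, adjusted p = 0.595 with DESeq2) with a 95% interval from -0.33 to 1.55, which includes both 0 and a rise above 2-fold. For middle-aged against young livers (81.8 ± 43.4 in young) the value was -0.90 (standard error 0.49, adjusted p = 0.26 with DESeq2). Over the 3 ages together Cdkn1a did not pass (adjusted p = 0.0876 with DESeq2), but it did with the spike-in set as a term (adjusted p = 0.0491 with DESeq2) and within replicates 3 and 4 (adjusted p = 0.00986 with DESeq2), and not within replicates 1 and 2 (adjusted p = 0.867 with DESeq2).

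Cdkn1b (chromosome 6, 134920401 to 134925513, ENSMUSG00000003031) encodes p27, which holds resting cells out of the cycle. It was the steadiest of the 10 genes, with normalised counts of 139, 131, 160 and 168 in young livers, 141, 152, 140 and 159 in middle-aged livers and 168, 180, 164 and 153 in aged livers. The highest liver was 1.37 times the lowest and the ages overlapped. The log2 fold change of aged against young livers was 0.15 (standard error 0.13, adjusted p = 0.646 with DESeq2), and its 95% interval from -0.11 to 0.40 leaves out a change of 2-fold in either direction.

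Cdkn2a (chromosome 4, 89274471 to 89294653, ENSMUSG00000044303) encodes p16Ink4a and, from an upstream first exon in another reading frame, p19Arf, which inhibits MDM2. RefSeq windows for its starts lie at chr4:89294570-89294869 and chr4:89282143-89282442, more than the length of a window apart, and a count for the whole gene does not separate the transcripts. The young livers held 3, 0, 0 and 2 reads, the middle-aged 6, 5, 7 and 9, and the aged 16, 2, 4 and 8. The gene reached 3 reads in 1 of 4 young livers, 4 of 4 middle-aged livers and 3 of 4 aged livers.

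Summed over 4 livers, Cdkn2a had 5 reads in young (exact Poisson 95% interval 1.62 to 11.7), 27 in middle-aged (17.8 to 39.3) and 30 in aged livers (20.2 to 42.8), where the intervals cover counting error only. In normalised counts the means were 1.28 ± 1.57, 6.41 ± 1.89 and 7.16 ± 6.32 (SD, n = 4). The middle-aged livers all lay above the young ones, and aged replicate 1 alone held 16 of the 30 aged reads. The fitted log2 fold change of aged against young livers was 2.39 (standard error 0.98, adjusted p = 0.163 with DESeq2) and that of middle-aged against young 2.24 (standard error 0.98, unadjusted p = 0.0225 by DESeq2, adjusted p = 0.358 without independent filtering, which left the gene out otherwise). Neither passed, and at this depth a change in Cdkn2a between ages was not established.

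The 4 other inhibitor genes (Cdkn1c, Cdkn2b, Cdkn2d and Cdkn3) also gave 0 calls in any comparison, with 0 under an unadjusted p of 0.05 by DESeq2 and 0 calls by edgeR. Low counts left 1 of them testable by DESeq2 in middle-aged against young livers, 3 in aged against young and 1 in aged against middle-aged, and 2 by edgeR, so these counts say little of the list. Cdkn2b, the neighbour of Cdkn2a that encodes p15Ink4b, was low, at 4.11 ± 3.39 normalised counts at 3 months, 4.61 ± 2.34 at 12 months and 8.2 ± 1.33 at 18 months. Cdkn2d, which encodes p19Ink4d, had 30.8 ± 12.3, 28.2 ± 6.13 and 24 ± 7.44, and Cdkn1c, which encodes p57, had 11.7 ± 5.25, 14.6 ± 5.9 and 11.5 ± 2.07. The decrease that passed the test in the INK4 family was thus that of Cdkn2c, and its difference from the other members was not tested.

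**Figure D2:**
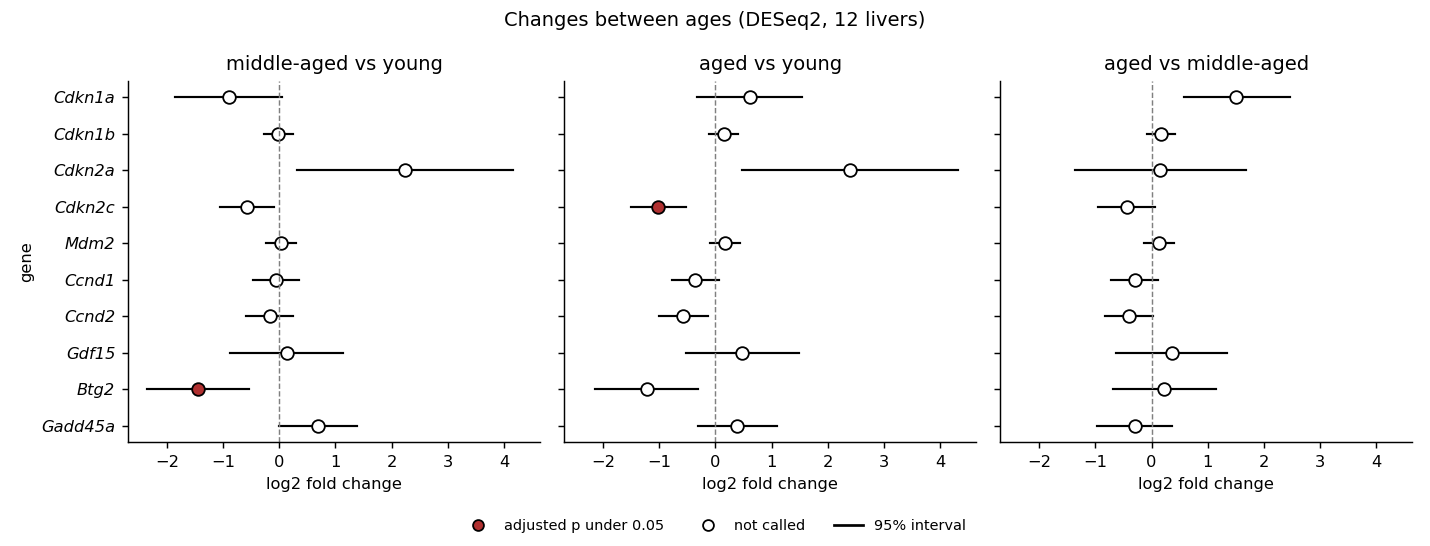
Log2 fold change (horizontal axes) of the 10 genes in the 3 comparisons of ages, from a DESeq2 fit of 12 livers. Points are estimates, lines are 95% intervals and filled points passed an adjusted p of 0.05: Btg2 at -1.45 for middle-aged against young and Cdkn2c at -1.02 for aged against young. The 3 comparisons share groups of livers and are not independent.

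Ccnd1 (chromosome 7, 144929931 to 144939925, ENSMUSG00000070348) encodes cyclin D1, which rises early in liver regeneration. Its normalised counts were 129, 132, 122 and 103 in young livers, 80.4, 93.4, 132 and 162 in middle-aged livers and 95.3, 98.3, 99.6 and 86.7 in aged livers. All aged livers lay below the lowest young liver, and the middle-aged livers spanned both. The log2 fold change of aged against young livers was -0.36 (standard error 0.21, adjusted p = 0.431 with DESeq2), which did not pass. The gene shares 1100 exonic bases with LTO1 on the opposite strand, which had 47 to 123 reads, and how strand was treated in counting is not given in the sources used here, so its level is uncertain to that extent.

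Ccnd2 (chromosome 6, 127125162 to 127152193, ENSMUSG00000000184) encodes cyclin D2. It had 121, 164, 147 and 125 normalised counts in young livers, 89.4, 109, 125 and 172 in middle-aged livers and 104, 72.2, 107 and 90.3 in aged livers. Young and aged livers again did not overlap, and middle-aged replicate 4 was the highest liver for both cyclins. The aged mean of 93.6 ± 16.1 against 139 ± 20.2 in young livers gave a log2 fold change of -0.57 (standard error 0.22, adjusted p = 0.126 with DESeq2), which did not pass. The antisense genes that overlap its exons had at most 1 read in any liver.

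Cdkn2c, Ccnd1 and Ccnd2 were thus the 3 of 9 members with a mean of at least 10 whose aged and young livers did not overlap, all lower in aged livers, where 7.9% of the 11804 genes of that level did not overlap. Between middle-aged and young livers 1 of 9 (Cdkn2c) did not overlap, against 15.6% of genes, and between aged and middle-aged livers 0 of 9, against 6.16%. These counts carry no test.

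The rest of the G1 machinery gave 0 calls among 22 cyclin, CDK, pocket protein and E2F genes by DESeq2 and by edgeR. DESeq2 tested 19 of them in middle-aged against young livers, 22 in aged against young and 16 in aged against middle-aged, and edgeR tested 19. In the same order DESeq2 called 6.41%, 3.58% and 1.14% of all genes tested, so 0 calls cannot be set apart from the background. With DESeq2, 1 of them was above and 1 below 0 at an unadjusted p under 0.05 for middle-aged against young, and 1 was below 0 for each of the other comparisons. Cdk4, a partner of the D cyclins, had 298 ± 29.1 normalised counts in young and 276 ± 23.2 in aged livers, and Cdk6 had 155 ± 21.4 and 159 ± 39.5. Ccnd3, the third D cyclin, had 278 ± 4.44 and 268 ± 34.9, and Rb1, which encodes the retinoblastoma protein, had 66 ± 12.9 and 69.1 ± 7.01 (SD, n = 4). The log2 fold changes of these 4 genes in aged against young livers lay between -0.11 and 0.07, with DESeq2 adjusted p of at least 0.695.

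Among genes of S phase and mitosis, 1 of 16 tested was called lower in aged than in young livers, where 3.58% of all genes tested were called. Cdk1, the kinase that starts mitosis, had 14.9, 21.7, 22.5 and 24.4 normalised counts in young livers, 6.95, 12.6, 4.42 and 7.02 in middle-aged livers and 2.01, 1.93, 5.24 and 5.36 in aged livers. No middle-aged or aged liver reached the lowest young one, and the log2 fold change of aged against young livers was -2.50 (standard error 0.54, adjusted p = 0.000656 with DESeq2). In that comparison 4 of the 13 proliferation genes with a mean of at least 10 had lower, non-overlapping aged livers. Of all genes of that level, 7.9% did not overlap, in either direction. The median log2 fold change of the 13 was -0.384, beside 0.0079 for all genes of that level, and edgeR also called 1 lower. Named after their values were seen, the others of the 4 were Top2a (-1.28, adjusted p = 0.0755 with DESeq2), Mcm5 (-0.75, adjusted p = 0.206 with DESeq2) and Mcm6 (-0.79, adjusted p = 0.0703 with DESeq2), which did not pass.

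Mdm2 (chromosome 10, 117688875 to 117710758, ENSMUSG00000020184) encodes the ubiquitin ligase that p53 induces and that in turn degrades p53. It had 221, 213, 213 and 188 normalised counts in young livers, 171, 209, 230 and 245 in middle-aged livers and 198, 247, 246 and 245 in aged livers. In the aged group 3 livers lay within 2 counts of each other and replicate 1 stood apart, inside the range of the other ages. The log2 fold change of aged against young livers was 0.17 (standard error 0.14, adjusted p = 0.617 with DESeq2), with a 95% interval from -0.10 to 0.43.

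Among the 10 regulators of p53, DESeq2 called 1 between aged and young livers, where 3.58% of all genes tested were called. Usp7, a deubiquitinase that stabilises MDM2 and p53, had 533 ± 35.9 normalised counts in young and 652 ± 63.7 in aged livers, a log2 fold change of 0.29 (standard error 0.09, adjusted p = 0.0494 with DESeq2), and edgeR called 0 of these regulators. The Usp7 call held in 2 of 12 fits that left out a liver, those without young replicate 1 and without aged replicate 1. The adjusted p was up to 0.223 by DESeq2 in the rest. Of 9 fits with other settings, 1 kept the call, and it was lost within each spike-in set. Trp53 itself had 125, 120, 147 and 157 in young, 139, 145, 166 and 141 in middle-aged and 234, 196, 191 and 154 in aged livers. Its highest 3 livers were aged, but aged replicate 4 lay inside the young range, and the log2 fold change of 0.49 (standard error 0.16, adjusted p = 0.051 with DESeq2) just missed the threshold. Mdm4, the relative of Mdm2 that masks p53, had 186 ± 30.1 in young and 191 ± 38.3 in aged livers, a log2 fold change of 0.03 (adjusted p = 0.96 with DESeq2).

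The 28 other p53 target genes gave 0 calls in any comparison by DESeq2 or by edgeR. DESeq2 tested 21 in middle-aged against young livers, 25 in aged against young and 19 in aged against middle-aged, and edgeR tested 23. In the same order DESeq2 called 6.41%, 3.58% and 1.14% of all genes tested, so 0 calls cannot be set apart from the background. In aged against young livers 4 had a DESeq2 unadjusted p under 0.05, all above 0, and they are named after their values were seen: Phlda3 (log2 fold change 1.04), Plk2 (0.48), Perp (0.32) and Ccng1 (0.29), with DESeq2 adjusted p from 0.119 to 0.303. In middle-aged against young livers 4 had an unadjusted p under 0.05 by DESeq2, also all above 0, and in aged against middle-aged livers 0. The median log2 fold change of the 22 targets with a mean of at least 10 was 0.153 in aged against young livers, beside 0.0079 for all genes, and 16 lay above and 6 below 0. These young livers are shared by both comparisons, so the positive values in each are not separate evidence.

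Gdf15 (chromosome 8, 70629393 to 70632456, ENSMUSG00000038508) encodes a circulating stress hormone that p53 and the integrated stress response induce and that lowers food intake through the brainstem. It had 14.9, 44.6, 48.6 and 75.2 normalised counts in young livers, 57.6, 97.9, 30.9 and 14 in middle-aged livers and 83.3, 58.8, 65.5 and 49.2 in aged livers. Young livers spanned a 5.06-fold range and middle-aged livers a 6.97-fold range, and 4 of 4 aged livers lay inside the latter. The log2 fold change of aged against young livers was 0.48 (standard error 0.51, adjusted p = 0.724 with DESeq2) with a 95% interval from -0.52 to 1.49, which includes both no change and a rise above 2-fold. Within replicates 1 and 2 it was 1.28 (adjusted p = 0.427 with DESeq2) and within replicates 3 and 4 it was -0.12 (adjusted p = 0.988 with DESeq2). For middle-aged against young livers the log2 fold change was 0.13 (standard error 0.51, adjusted p = 0.923 with DESeq2). It was 1.41 within replicates 1 and 2 (adjusted p = 0.208 with DESeq2) and -1.47 within replicates 3 and 4 (unadjusted p = 0.00828 by DESeq2, which gave no adjusted value there), where 2 livers stood against 2. The small difference in the pooled mean thus joined values on opposite sides of 0, and whether the sets differed was not tested. Fgf21, another stress hormone of the liver and an ATF4 target, was at most 1.18 normalised counts in young livers and 9.03, 17.3, 33.2 and 15.2 in aged livers, and rose between these ages (adjusted p = 0.00213 with DESeq2). The young livers were all below 3 reads, so no fold is given. The gene was too low to enter the edgeR test. It was the 1 gene called of 12 tested among stress hormone and integrated stress genes, where 3.58% of all genes tested were called. Of the 11 such genes with a mean of at least 10, 3 lay above and 8 below 0, with a median log2 fold change of -0.441.

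Btg2 (chromosome 1, 134075170 to 134079120, ENSMUSG00000020423) encodes an antiproliferative protein that p53 and growth signals induce within minutes and that also promotes shortening of mRNA tails. Its normalised counts were 245, 436, 113 and 133 in young livers, 49.6, 42.2, 127 and 120 in middle-aged livers and 172, 76.1, 96.1 and 53.6 in aged livers. The young livers of replicates 1 and 2 were the highest of the 12 and the middle-aged livers of replicates 1 and 2 the lowest, while replicates 3 and 4 of both ages lay together. The ages overlapped in each pair.

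For middle-aged (84.8 ± 45.1) against young (232 ± 148) livers the log2 fold change of Btg2 was -1.45 (standard error 0.47, adjusted p = 0.0372 with DESeq2), which passed. Within replicates 1 and 2 it was -2.89 (adjusted p = 4.98e-10 with DESeq2) and within replicates 3 and 4 it was 0.00 (adjusted p = 1.0 with DESeq2), where 2 livers stood against 2. Whether the sets differed was not tested. The call was lost with edgeR (-1.45, adjusted p = 0.11), with the filter on low counts, without independent filtering, with only the 2 ages fitted, with the spike-in set as a term (-1.31), and without any 1 of the livers except aged replicate 1, with DESeq2 adjusted p between 0.0815 and 0.303 when a liver was left out. Without young replicate 2 the change was -0.95. Aged against young livers differed by -1.22 (standard error 0.47, adjusted p = 0.128 with DESeq2), which did not pass with all livers and passed without aged replicate 1 (adjusted p = 0.012 with DESeq2) and within replicates 1 and 2 (-1.46, adjusted p = 0.0158 with DESeq2).

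Egr1 and Fos, other genes of rapid induction, were also lower in the middle-aged livers. Among 13 immediate early and handling genes tested, DESeq2 called 2 lower in middle-aged than in young livers, and edgeR called 1. Of all genes tested by DESeq2 there, 6.41% were called, in either direction. The median log2 fold change of the 14 with a mean of at least 10 was -0.605, beside 0.0078 for all genes of that level. Egr1, an early growth response factor, had 246, 675, 192 and 728 normalised counts in young livers, 32.8, 26.9, 57.4 and 47.1 in middle-aged livers and 303, 42.4, 98.8 and 28.6 in aged livers. All 4 middle-aged livers lay below all 4 young ones, in both spike-in sets, unlike Btg2, and the log2 fold change was -3.49 (standard error 0.73, adjusted p = 0.000281 with DESeq2), called in 12 of 12 fits that left out a liver. Fos, a subunit of AP-1, changed by -3.07 (standard error 0.87, adjusted p = 0.0137 with DESeq2) from 32.9 ± 34.5 in young livers, a call that was lost without young replicate 2 (adjusted p = 0.221 with DESeq2) and with edgeR.

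**Figure D3:**
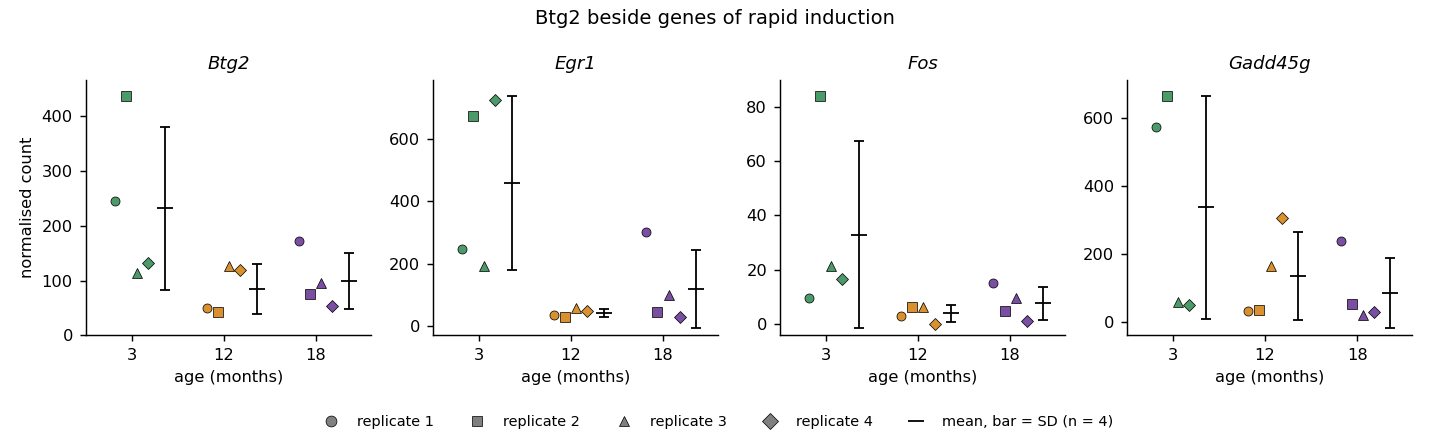
Normalised count of Btg2, Egr1, Fos and Gadd45g against age in months, with 1 marker per liver shaped by replicate number and a bar for the mean and SD of 4 livers. Egr1 is lower in all 4 middle-aged than in all 4 young livers, whereas Btg2 and Gadd45g are high in young replicates 1 and 2 and lie at 113 to 133 and 51.7 to 59.2 in young replicates 3 and 4.

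Gadd45a (chromosome 6, 67035096 to 67037457, ENSMUSG00000036390) encodes a stress sensor that binds PCNA and p21 and activates p38 signalling. It had 31.8, 33.1, 23.7 and 21.5 normalised counts in young livers, 33.8, 27.8, 40.6 and 75.2 in middle-aged livers and 36.1, 27.9, 31.5 and 48.3 in aged livers. Middle-aged replicate 4 was the highest and aged replicate 4 the next, and the ages overlapped. The log2 fold change of middle-aged against young livers was 0.69 (standard error 0.35, adjusted p = 0.231 with DESeq2). It was -0.08 within replicates 1 and 2 (adjusted p = 0.999 with DESeq2) and 1.35 within replicates 3 and 4 (unadjusted p = 0.0201 by DESeq2, which gave no adjusted value there), and whether the sets differed was not tested. Its exons share 337 bases with E230016M11Rik on the opposite strand, which had 1 to 11 reads.

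The 7 relatives of Gadd45a and Btg2 (of which DESeq2 tested 4 or 5 in a comparison, and edgeR 5) gave 0 calls. DESeq2 called 1.14% to 6.41% of all genes in these comparisons, so 0 calls cannot be set apart from the background. At an unadjusted DESeq2 p under 0.05, 1 was above 0 for aged against young, and 1 above and 1 below 0 for aged against middle-aged. Gadd45g had 573, 666, 59.2 and 51.7 normalised counts in young, 33.8, 37.7, 166 and 306 in middle-aged and 240, 53.9, 21.8 and 29.5 in aged livers. The young livers of replicates 1 and 2 exceeded those of replicates 3 and 4 here too, and in middle-aged livers the order was the opposite. Gadd45b was low, at 13.3 ± 8.88 in young and 9.29 ± 8.26 in aged livers. Btg1, a paralogue of Btg2, had 312 ± 24.3, 292 ± 18.4 and 378 ± 51.8 normalised counts in young, middle-aged and aged livers, with a log2 fold change of 0.37 for aged against middle-aged (standard error 0.12, adjusted p = 0.0954 with DESeq2).

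The time of day of dissection is not in the labels, and genes with a daily rhythm moved with the age groups. Of 15 clock genes tested, DESeq2 called 6 higher and 1 lower in middle-aged than in young livers, against 6.41% of all genes tested. In aged against young livers it called 1 higher and 0 lower of 16, against 3.58%. In aged against middle-aged livers it called 3 higher and 6 lower of 14, against 1.14%. In the same order edgeR, which tested 16, called 3 higher and 1 lower, 0 in either direction, and 1 higher and 4 lower. Dbp, a clock output factor, had 188, 220, 173 and 130 normalised counts in young livers, 908, 657, 503 and 687 in middle-aged livers and 173, 157, 18.4 and 52.7 in aged livers. The glucocorticoid target Tsc22d3 was lower in middle-aged than in young livers, by a log2 fold change of -1.04 (standard error 0.23, adjusted p = 0.000678 with DESeq2). That call was lost within replicates 1 and 2, where 2 livers stood against 2. The part of time of day, stress hormones or handling in the differences of Btg2 and Cdkn1a was not tested.

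Genes followed as secretory or structural marks of senescent cells gave 0 calls, but many of the 31 could not be tested, most through low counts and Cxcl1 through an outlying count. DESeq2 tested 16 of them in middle-aged against young livers, 23 in aged against young and 13 in aged against middle-aged, and edgeR tested 20. In the same order DESeq2 called 6.41%, 3.58% and 1.14% of all genes tested, so 0 calls cannot be set apart from the background. With DESeq2, 0 of them had an unadjusted p under 0.05 in aged against young livers, 1 above and 2 below 0 did in middle-aged against young, and 1 above and 1 below 0 did in aged against middle-aged. The cytokine genes Il6, Cxcl2 and Ccl8 and the protease gene Mmp3 had a mean under 1 normalised count, and no count was found for Areg. Nothing can be read from these genes at this depth. The median log2 fold change in aged against young livers was 0.116 over the 20 genes with a mean of at least 10.

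Markers of the cell types that a whole liver holds gave calls in 2 of 7 lists. Of all genes tested, DESeq2 called 6.41% in middle-aged against young livers, 3.58% in aged against young and 1.14% in aged against middle-aged. DESeq2 called 0 of 6 hepatocyte, 0 of 7 endothelial and 0 of 8 stellate and fibroblast markers in any comparison, and edgeR called 0 of them too, with at most 2 in a list and comparison under an unadjusted p of 0.05 by either tool. All of these were tested apart from 1 stellate and fibroblast marker in aged against middle-aged livers. Many markers of circulating cells got no adjusted p from DESeq2, either because their counts were low or, for S100a8 and S100a9, because 1 liver had an outlying count. Of 8 lymphocyte markers DESeq2 tested 3 in middle-aged against young livers, 6 in aged against young and 2 in aged against middle-aged, and edgeR tested 4. Of 6 neutrophil and monocyte markers DESeq2 tested 1, 3 and 0 in the same order, and edgeR tested 3. Neither tool called any of those tested, which leaves a change in these cells undetermined. Of 7 cholangiocyte markers, Sox9 rose from 44 ± 13.9 to 79.3 ± 5.06 normalised counts in aged livers (log2 fold change 0.86, standard error 0.24, adjusted p = 0.0169 with DESeq2) and Tff3 fell (-4.06, standard error 0.83, adjusted p = 0.000224 with DESeq2), so the list had no shared direction. Of 9 fits with other settings, 4 kept the Sox9 call in aged against young livers and 5 that in aged against middle-aged livers. Both Sox9 calls were lost with edgeR and within each spike-in set. In aged against young livers, leaving out any 1 of young replicates 1 and 4 and aged replicates 2, 3 and 4 also lost it (adjusted p up to 0.0872 with DESeq2). The Tff3 call in that comparison was kept in 12 of 12 fits that left out a liver. Of 8 macrophage markers tested, DESeq2 called 1, Marco, higher in aged than in young livers (2.46, standard error 0.69, adjusted p = 0.0178 with DESeq2). Its level was 791 normalised counts in aged replicate 1, which was also the liver with the highest Cdkn2a. The Marco call was kept in 5 of 9 fits with other settings. It was lost with edgeR, within each spike-in set, and without young replicate 1, 2 or 3 (adjusted p up to 0.0858 with DESeq2 in these last fits). Of the 8 macrophage markers, 2 lay above and 6 below 0 in aged against young livers, with a median log2 fold change of -0.085. Summed over the list, the macrophage markers ranged from 2708 to 4880 normalised counts in young livers, 2348 to 3102 in middle-aged livers and 2793 to 4838 in aged livers, and the lymphocyte markers from 48.8 to 209, from 48.7 to 469 and from 84.8 to 134. Ly6g alone among the markers had a mean under 1. The part of these cells in the values of Cdkn2a, Cdkn2c or the cyclins was not tested.

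Levels can be compared between genes only per length of exon. Per kb, the mean over 12 livers was 50.5 normalised counts for Btg2, 43 for Mdm2, 34 for Cdkn1b, 28.8 for Gdf15, 23.6 for Ccnd1, 23.5 for Cdkn1a, 20.4 for Gadd45a, 14.6 for Cdkn2c, 12.6 for Ccnd2 and 4.22 for Cdkn2a. Most neighbours in this order did not differ beyond the spread between livers. The exceptions were Mdm2 above Cdkn1b, in 12 of 12 livers, and Ccnd2 above Cdkn2a, in 11 of 12. The order pools the ages and was not the same at each. At 3 months the mean of Btg2 was 84.4 normalised counts per kb, above Mdm2 at 41.1. At 12 months Btg2 had 30.9 and Mdm2 42, and at 18 months Btg2 had 36.2 and Mdm2 46. Cdkn1a had means of 23, 12.3 and 35.1 normalised counts per kb at 3, 12 and 18 months, and Cdkn2c had 20.1, 13.5 and 9.99. Btg2 exceeded Mdm2 in 5 of 12 livers.

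**Figure D4:**
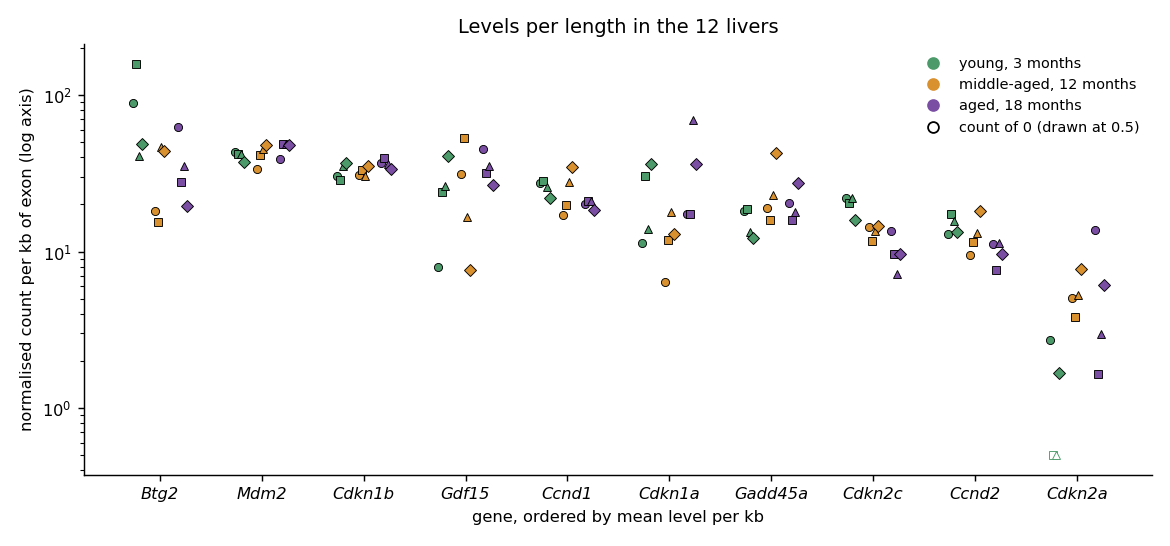
Normalised count per kb of exon on a log axis for the 10 genes, ordered by their mean, with 1 marker per liver coloured by age. Mdm2 and Cdkn1b form narrow columns, Btg2, Gdf15 and Cdkn1a spread over wide ones, and Cdkn2a lies at the bottom with a mean of 4.22, with open markers for 2 young livers without a count.

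For the 7 members averaging 50 normalised counts or more, the genes whose pattern was most alike over the 12 livers were listed among 8888 genes by Pearson's r of log2(normalised count + 1), as a description without a test. The points share the age groups and the spike-in sets. Btg2 was most like C2 (0.923), Akr1b3 (0.897) and Jun (0.894), and Gdf15 was most like Sesn2 (0.87), Nr0b2 (0.864) and Ddit4 (0.838). Cdkn1a was most like Tor3a (0.859), Sowahb (0.83) and Zfp612 (0.823), and Mdm2 was most like Bclaf1 (0.85), Socs6 (0.838) and Dop1a (0.831). Sesn2 and Ddit4 encode stress-induced inhibitors of mTORC1 signalling, and Jun encodes the other subunit of AP-1.

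Cdkn1b was most like Nelfa (0.872), Dnajb4 (0.863) and G3bp1 (0.858). Ccnd1 was most like Tent5c (0.895), Pabpc1 (0.879) and Bpgm (0.873), and Ccnd2 was most like Jcad (0.92), Hbb-bt (0.909) and Cdr2 (0.909). Between the members themselves, Ccnd1 and Ccnd2 had the highest coefficient (0.823) and Ccnd1 and Gdf15 the lowest (-0.772). Cdkn1a and Mdm2, both targets of p53, had 0.427, and Cdkn1a and Btg2 had 0.2.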

How the data were processed

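The authors deposited a table of whole-number read counts per gene for 12 livers, without normalisation. The submitters' processing notes name STAR 2.5.2b, SAMtools 1.9, featureCounts and builds mm10 and GRCm38. Whether counting used strand is not given in the sources used here. The 92 spike-in rows were left out of size factors and tests.

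Genes with at least 1 count (28449) entered DESeq2 1.42.0 (R 4.3.3), the tool that the study's methods name: a design of age alone, size factors by median of ratios, Wald tests between ages, a likelihood ratio test over 3 ages, default independent filtering, Benjamini-Hochberg adjustment over all genes and a call at an adjusted p under 0.05. p-values measure the spread between these livers. The edgeR 4.0.16 quasi-likelihood test and the other alternatives are in the closing section. The count for each gene per kb uses its union of exons.

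The members, gene lists and alternatives were chosen with earlier results of these data known, and no list is independent support. Genes were named by a fixed rule: the members, 12 relatives (Trp53, Mdm4, Rb1, Cdk4, Cdk6, Ccnd3, Cdkn1c, Cdkn2b, Cdkn2d, Gadd45b, Gadd45g, Btg1), up to 3 called genes per list, direction and comparison, not all of them printed, and the 3 genes most alike to each member of mean at least 50. Outside this rule, Top2a, Mcm5, Mcm6, Phlda3, Plk2, Perp and Ccng1 were named after their values were seen. Other genes were named to state a list or its low or untested genes. The script was tested on simulated data. All replicate pairs differed by more than sampling noise (smallest chi-square per gene 11.2 over 8888 genes).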

Additional observations from a re-analysis of the deposited data

Results flagged for a closer look

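Among 30 groups of 4 livers (10 genes at 3 ages), 1 held a liver that stood apart by Dixon's rule for 4 values, where chance gives about 1 group in 20. Mdm2 had 198 normalised counts in aged replicate 1 and 245 to 247 in the other aged livers. The gap was 0.966 of the group's range, past the critical value. The spike-in transcripts, which enter no comparison, were present in every library, with a lowest share of 1.59% of the counts.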

How the results depend on the processing

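Of 624 values of single genes under the alternatives, 563 kept their direction and side of the threshold, 34 reversed, 20 no longer passed and 7 newly passed, and the causes were not tested. The Cdkn2c call in aged against young livers held under every alternative except within each spike-in set and without aged replicate 3. The number of members called between middle-aged and young livers was 1 (Btg2), and 0 with the filter on low counts, no independent filtering, only 2 ages, the replicate block, the set as a term, within replicates 3 and 4 and with edgeR, and 0 to 1 with a liver left out. Between aged and young it was 1, 0 within replicates 3 and 4, and 0 to 2 with a liver left out. Within replicates 1 and 2 the 1 gene called was Btg2. Between aged and middle-aged livers it was 0, 1 (Cdkn1a) with only 2 ages, with the replicate block and within replicates 3 and 4, and 0 to 1 with a liver left out. Over 3 ages it was 2 (Cdkn2c and Btg2), and 1 with the filter or no independent filtering (Cdkn2c), with the replicate block or within replicates 3 and 4 (Cdkn1a) and within replicates 1 and 2 (Btg2). It was 2 with the set as a term, then Cdkn2c and Cdkn1a, 0 with edgeR, and 0 to 3 with a liver left out. With the replicate block the adjusted p over 3 ages (DESeq2) was 0.037 for Cdkn1a, 0.091 for Cdkn2c and 0.487 for Btg2, and Cdkn1a in aged against middle-aged livers was 1.44 (adjusted p = 0.0125 with DESeq2).

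Replicate numbers did not pair the livers, since correlations of same-numbered deviations ran from -0.303 to 0.159, and the labels assign each library to its own animal. With the replicate block DESeq2 called 385 genes between middle-aged and young livers, 426 between aged and middle-aged and 451 over 3 ages, against 727, 117 and 865 without it. For middle-aged against young, the counts were 443 without independent filtering, 1166 with only 2 ages, 251 within replicates 1 and 2, 305 within replicates 3 and 4, 280 with edgeR and 345 to 1095 with a liver left out. For aged against young (484), they were 321 without independent filtering, 290 with only 2 ages, 137 within replicates 1 and 2, 172 with edgeR and 237 to 1291 with a liver left out. For aged against middle-aged, they were 62 without independent filtering, 34 and 307 within the sets, 13 with edgeR and 45 to 198 with a liver left out. Over 3 ages, they were 270 within replicates 1 and 2, 233 with edgeR and 496 to 1637 with a liver left out.

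Reversed log2 fold changes for middle-aged against young within replicates 1 and 2 were 0.12 for Cdkn1b, -0.19 for Mdm2 and -0.08 for Gadd45a, and within replicates 3 and 4 they were 0.37 for Ccnd1, 0.12 for Ccnd2, -1.47 for Gdf15 and 0.00 for Btg2. TMM factors gave 0.00 for Cdkn1b, and Gdf15 was -0.02 with the replicate block and -0.01 with the set as a term. For aged against young they were -0.25 for Cdkn1a and -0.02 for Gadd45a within replicates 1 and 2, and -0.05 for Cdkn1b and -0.12 for Gdf15 within replicates 3 and 4. For aged against middle-aged they were 0.16 for Ccnd1, -0.13 for Gdf15 and 0.06 for Gadd45a within replicates 1 and 2, -0.51 for Cdkn2a and -0.72 for Btg2 within replicates 3 and 4, and -0.26 for Cdkn2a with the replicate block. With a liver left out, the values for middle-aged against young ran from -0.07 to 0.04 for Cdkn1b, -0.04 to 0.12 for Mdm2, -0.25 to 0.08 for Ccnd1 and -0.43 to 0.48 for Gdf15, and for aged against middle-aged from -0.60 to 0.47 for Cdkn2a (below 0 without aged replicate 1), -0.17 to 0.49 for Btg2 (below 0 without aged replicate 1) and -0.47 to 0.08 for Gadd45a (above 0 without middle-aged replicate 4). None of these genes passed in the comparison given, apart from Btg2 for middle-aged against young. TMM factors moved the median of all genes by 0.0219 and 0.0239 for middle-aged and aged against young. Depth limits Cdkn2a most, at 0 to 16 reads per liver.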
